A study of Mus musculus with 6 samples.

Results

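Genes of the machinery that recognises and clears dying cells and debris were described in the injured sciatic nerve. The set was chosen by name and holds 10 of the 52999 gene symbols in the files: the receptor tyrosine kinases Axl, Mertk and Tyro3, their bridging ligands Gas6 and Pros1, the bridging molecule Mfge8, the receptors Megf10 and Pear1, and the receptors Stab1 and Trem2. For each symbol the estimated counts and the TPM, a level corrected for transcript length, of all its transcripts were summed in each library. All 10 genes passed the filter on low counts.

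A dying cell exposes phosphatidylserine on its surface, and phagocytes bind it either directly or through a bridging protein that holds the corpse to a receptor. Gas6 bridges phosphatidylserine to the TAM kinases Tyro3, Axl and Mertk. Protein S (Pros1) bridges it to Tyro3 and Mertk, whereas Mfge8 bridges it to integrins. In a cut nerve, Schwann cells and macrophages clear myelin and axon fragments, and the TAM receptors take part in the clearance of myelin by Schwann cells.

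RNA came from left sciatic nerves, from the proximal stump on the ganglion side of the cut, taken 24 h after the nerve had been cut at mid-thigh in C57BL6/J mice 6 to 8 weeks old. There were 3 libraries from axotomised males and 3 from axotomised females, and each was a pool of nerves from 2 mice. Both groups had the same strain, age and injury, and nerves of sham-operated mice are not analysed here, which means that none of the values is an injury response. The question was how the levels differ between the sexes.

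The estimated counts came to 51936195 to 69848769 in males and 49158283 to 64802091 in females, and 18396 genes were tested. The levels of Schwann cell markers fitted the labelled tissue, with 6 general markers, none at 0, summing to 2059 to 2508 CPM (counts scaled to library size) in males and 1318 to 1808 CPM in females. Female 3 stood apart from the other females: it lay at -7.5 on the axis of largest variation (43.8% of the variance), with males at 35.9 to 42 and females 1 and 2 at -61.5 and -46, and it held 139 counts of the Y-linked gene Ddx3y, which was at 0 in females 1 and 2. Library sizes for CPM were normalised with TMM factors. Fold changes are male minus female on the log2 scale ± SE, and a gene counted as called below an adjusted p of 0.1, from edgeR's quasi-likelihood test with Benjamini-Hochberg adjustment over every tested gene.

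Of the 10 genes 1 was called, Axl, which fell in males. Across all genes tested 5.30% were called in either direction with 3.84% higher and 1.46% lower in males. The Wald test of DESeq2 called 4 of the 10 (Axl, Mertk, Pros1 and Stab1), against 13.3% of all genes, and limma-voom called Axl alone, against 4.62%. An unadjusted p under 0.05 was reached by 4 of the 10 genes (Axl, Mertk, Pros1 and Stab1), against 20.7% of all genes. The same 4 genes had no overlap in CPM between the sexes, against 25.5% of all genes, and of them Mertk lay above in males (13.9% of all genes did) while Axl, Pros1 and Stab1 lay below (11.6%). The median difference of the 10 genes was -0.18 with 7 negative and 3 positive. That of all genes was -0.03 with 9800 negative and 8596 positive. In a bulk sample, fewer cells of a type and less RNA per cell cannot be told apart.

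**Figure D1:**
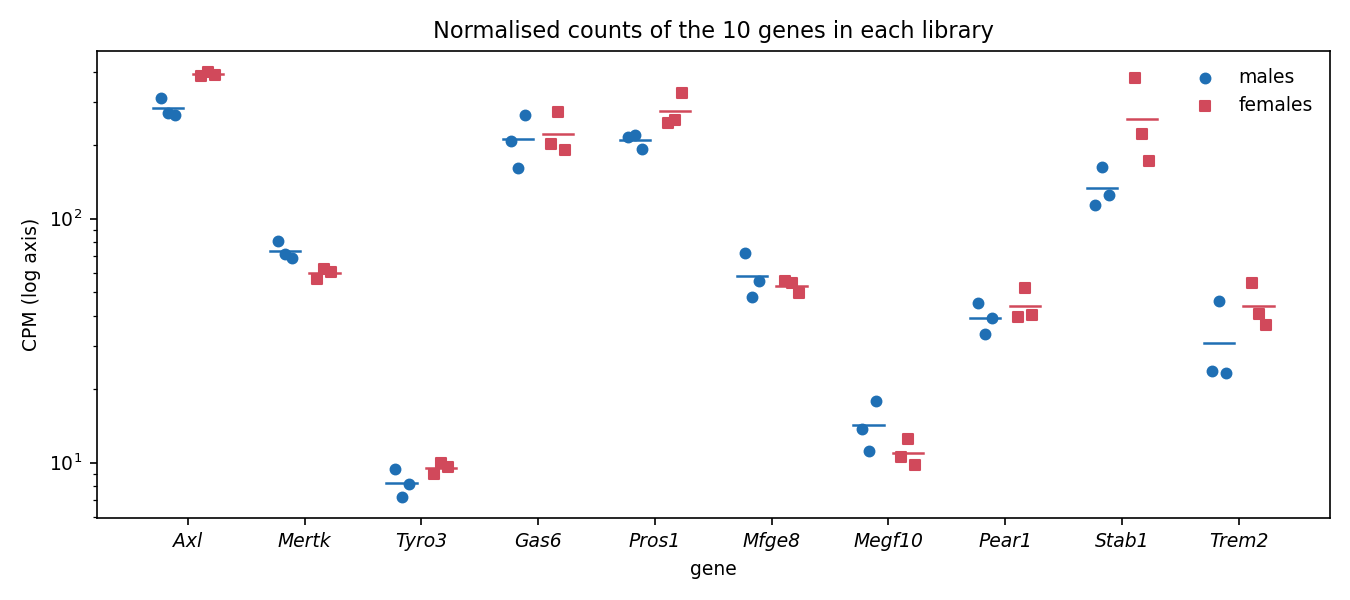
CPM (log axis) of each of the 10 genes in the 3 male libraries (blue circles, left) and the 3 female libraries (red squares, right), with the mean of each sex as a line. The sexes do not overlap for Axl, Mertk, Pros1 and Stab1, and Axl has the narrowest spread within females (386 to 399.6 CPM).

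Per length, the ligands and Axl were the most abundant of the set. Mean TPM over the 6 libraries were 126 for Pros1, 114 for Gas6, 114 for Axl, 89.1 for Stab1, 45.9 for Trem2, 37.8 for Mfge8, 23.4 for Mertk, 19.3 for Pear1, 3.23 for Tyro3 and 2.53 for Megf10. Neighbours in this order had overlapping ranges, except that Mfge8 (30.7 to 47.8 TPM) lay above Mertk (19.2 to 28.4 TPM) and Pear1 (16.9 to 26.7 TPM) above Tyro3 (2.72 to 3.71 TPM). Axl was thus the leading TAM receptor of the stump, and Tyro3, the TAM receptor best known from the central nervous system, the least abundant of the 3. Much of the Stab1 level lay in a short intron-retaining transcript, Stab1-204, with means of 44.6 TPM in males and 34.2 TPM in females. The full-length coding transcript Stab1-201 averaged 6.68 TPM in males and 25.2 TPM in females.

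The TAM receptors and the other members with several transcripts are easier to follow with the stretches that tell their transcripts apart. They are given 5′ to 3′ on the transcribed strand of mouse assembly GRCm39. Capitals mark the stretch that one transcript has and the other lacks, and lower case marks 15 flanking bases on each side.
Axl exon of 27 bases in Axl-201, absent from Axl-202 (chr7:25472524-25472550, minus strand): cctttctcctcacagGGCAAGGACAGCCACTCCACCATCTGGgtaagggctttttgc
Mertk intron stretch of 34 bases that begins Mertk-202, absent from Mertk-201 (chr2:128613233-128613266, plus strand): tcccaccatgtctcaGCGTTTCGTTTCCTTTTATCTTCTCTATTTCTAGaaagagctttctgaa
Stab1 retained intron of 72 bases in Stab1-204, absent from Stab1-201 (chr14:30862033-30862104, minus strand): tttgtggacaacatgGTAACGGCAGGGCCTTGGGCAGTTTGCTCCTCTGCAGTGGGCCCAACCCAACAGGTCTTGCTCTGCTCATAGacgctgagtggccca
Mfge8 exon of 111 bases in Mfge8-201, absent from Mfge8-202 (chr7:78793026-78793136, minus strand): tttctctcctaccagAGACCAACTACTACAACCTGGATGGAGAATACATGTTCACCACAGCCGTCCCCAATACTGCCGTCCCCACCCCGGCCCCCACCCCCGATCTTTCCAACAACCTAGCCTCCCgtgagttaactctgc
Trem2 extension of an exon by 55 bases in Trem2-202, absent from Trem2-201 (chr17:48658719-48658773, plus strand): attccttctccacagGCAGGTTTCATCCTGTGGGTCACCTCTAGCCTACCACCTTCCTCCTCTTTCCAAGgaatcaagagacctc
The stretches of Axl, Mfge8 and Trem2 lie inside the coding sequence of a transcript annotated as protein-coding. Those of Mertk and Stab1 belong to transcripts annotated as noncoding, and they are shown because the differences of these genes between the sexes lay in transcripts that such stretches separate.

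Axl, a TAM kinase that binds Gas6 and is known for its rise under inflammation, had 313, 271 and 267 CPM in males, against 386, 399.6 and 387 CPM in females. All 3 males lay below all 3 females. The means were 284 ± 25.7 CPM in males and 391 ± 7.42 CPM in females (SD, n = 3 each), a difference of -0.46 ± 0.11 (edgeR adjusted p = 0.0882). The difference lay between -0.55 and -0.40 in all 16 other settings, but the call was lost when female 1 (adjusted p = 0.245), female 2 (0.189), male 1 (0.116), male 2 (0.169) or male 3 (0.309) was left out, and was kept without female 3 (0.0762).

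The coding transcript Axl-201 (chromosome 7, gene at 25456535 to 25488329, minus strand) carried most of the Axl signal and had 90.6, 82.6 and 81.2 TPM in males and 105, 118 and 101 TPM in females. Its levels did not overlap, and the exact permutation p was 0.1, the smallest that 3 against 3 libraries allow. Axl-202, which skips the 27-base exon, had 2.34, 0.872 and 1.90 TPM in males and 11.3, 7.77 and 2.36 TPM in females. The short intron-retaining transcript Axl-203 had 3.35, 0 and 0.332 TPM in males and 23.8, 16 and 2.35 TPM in females, so that for both minor transcripts female 3 lay nearest to the males. With protein-coding transcripts alone, Axl differed by -0.41 ± 0.11 (edgeR adjusted p = 0.0958). This setting was chosen after seeing the data, and 6.56% of all genes were called under it.

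Mertk, the TAM kinase best known from macrophages and from the retina, had 80.8, 71.7 and 68.8 CPM in males, against 56.8, 62.4 and 60.2 CPM in females. All males lay above all females. The difference was 0.30 ± 0.10 and was not called (edgeR adjusted p = 0.148), with means of 73.8 ± 6.28 CPM in males and 59.8 ± 2.81 CPM in females (SD, n = 3 each). Without female 3 it was 0.31 (edgeR adjusted p = 0.135).

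The higher Mertk total in males lay in a noncoding transcript. Mertk-202, a processed transcript that begins with the intron stretch printed above and holds the 3′ part of the gene (chromosome 2, 128540729 to 128645080, plus strand), had 11.8, 15.2 and 10.9 TPM in males and 2.76, 3.3 and 7.49 TPM in females (exact permutation p = 0.1, no overlap). The full-length coding transcript Mertk-201 had 16.6, 11.5 and 14.1 TPM in males and 16.7, 18.4 and 11.7 TPM in females (exact permutation p = 0.5). Its ranges overlapped, with female 3 among the males. With protein-coding transcripts alone the difference of Mertk turned to -0.06 ± 0.15 (edgeR adjusted p = 0.847).

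The makeup of the TAM receptors differed between the sexes in the same way. Axl made up 75.9, 74.5 and 75.2% of the summed TPM of Axl, Mertk and Tyro3 in males, against 86.7, 85.5 and 83.3% in females. Mertk made up 21.6, 23.1 and 22.0% in males, against 11.2, 12.4 and 14.4% in females. These shares are taken from the same gene levels and, because Tyro3 was small, nearly mirror each other. Neither overlapped (exact permutation p = 0.1 each, the smallest possible), and the differences were -9.97 and 9.56 percentage points. Over protein-coding transcripts alone they shrank to -2.58 points for Axl (exact permutation p = 0.2) and 2.14 points for Mertk (0.300), with Mertk at 14.6, 11.7 and 14.1% in males and 11.9, 12.3 and 9.72% in females. The sexes then overlapped, and most of the difference in the receptor makeup thus lay in Mertk-202.

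Tyro3 had 9.44, 7.25 and 8.15 CPM in males and 8.98, 10 and 9.62 CPM in females. The sexes overlapped and the difference of -0.20 ± 0.15 was not called (edgeR adjusted p = 0.471). It was -0.09 without male 2 and -0.31 without male 1. Its share of the TAM receptors was small in every library, 2.47, 2.35 and 2.82% in males and 2.02, 2.11 and 2.27% in females. The shares did not overlap, with a difference of 0.411 points over all transcripts and 0.433 points over protein-coding transcripts alone (exact permutation p = 0.1 each). Tyro3 itself averaged 3.05 TPM in males and 3.40 TPM in females, and Axl 90.4 and 137 TPM. The higher Tyro3 share in males thus went with a lower Axl and no higher mean of Tyro3.

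**Figure D2:**
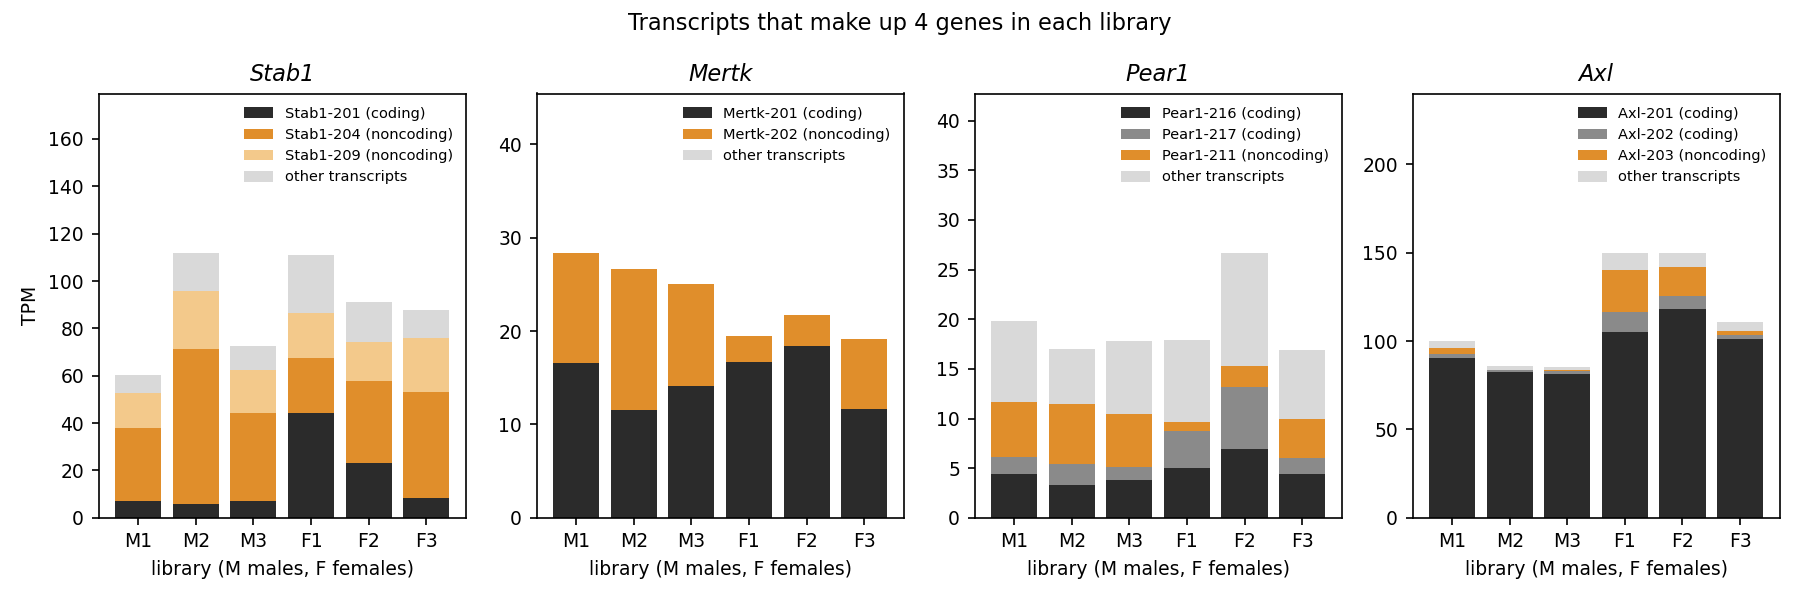
TPM of the transcripts of Stab1, Mertk, Pear1 and Axl in each library, stacked, with males M1 to M3 left and females F1 to F3 right. Black and grey bars are coding transcripts, orange and light orange bars are transcripts annotated as noncoding, and the palest grey is the sum of the remaining transcripts. Stab1-201 is 44.1 TPM in female 1 and 5.92 to 7.13 TPM in males, and Mertk-202 is 10.9 to 15.2 TPM in males and 2.76 to 7.49 TPM in females.

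Of the 2 ligands, protein S was the one whose sexes did not overlap. Pros1, a vitamin K-dependent plasma protein that also acts in blood clotting control, had 216, 219.7 and 193 CPM in males, against 246, 253 and 327 CPM in females. The means were 209.5 ± 14.6 CPM in males and 275 ± 44.8 CPM in females (SD, n = 3 each), and the difference of -0.39 ± 0.14 was not called (edgeR adjusted p = 0.174). Without female 3, the highest library, it was -0.25 (edgeR adjusted p = 0.199). In TPM the separation was tighter, with 106, 112 and 103 TPM in males and 147, 143 and 142 TPM in females.

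The coding transcript Pros1-201 (chromosome 16, gene at 62674275 to 62749710, plus strand) had 106, 97.8 and 93.8 TPM in males and 147, 143 and 142 TPM in females, so it accounted for nearly the whole gene in females. A minor transcript, Pros1-202, was listed at 0, 14.2 and 8.75 TPM in males and at 0 TPM in all 3 females.

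Gas6, the ligand with the highest affinity for Axl, had 208, 161 and 266 CPM in males and 203, 275 and 191 CPM in females. Values were high and low in both sexes, and the difference was -0.07 ± 0.21 (edgeR adjusted p = 0.871). Gas6 has a single transcript in the files, so its level does not depend on how reads were split. Gas6 made up 50.6, 44.5 and 58.5% of the summed TPM of the 2 ligands in males and 41.0, 50.7 and 38.9% in females (exact permutation p = 0.300). The share thus ran from 38.9 to 58.5%, and which ligand was the more abundant differed between libraries. The sign of the Gas6 difference turned when male 2 (0.13) or female 2 (0.10) was left out.

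Mfge8, which links phosphatidylserine to integrins on phagocytes, had 72.0, 47.8 and 55.4 CPM in males and 55.3, 54.6 and 49.7 CPM in females. Male 1 was highest and male 2 lowest, and the difference of 0.14 ± 0.15 was not called (edgeR adjusted p = 0.649). It was -0.04 without male 1 and 0.29 without male 2. The transcript with the 111-base exon, Mfge8-201, made up 14.7, 9.92 and 10% of Mfge8 TPM in males and 17.3, 17.7 and 10.9% in females, and the shorter Mfge8-202 made up most of the rest in every library. The shares overlapped between the sexes.

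Megf10, an engulfment receptor known from astrocytes and muscle satellite cells and related to the worm receptor CED-1, was at 13.7, 11.2 and 17.9 CPM in males and 10.5, 12.5 and 9.81 CPM in females. The sexes overlapped, and the difference of 0.38 ± 0.19 was not called (edgeR adjusted p = 0.310). It was 0.19 without male 3 and 0.56 without male 2. Pear1, a receptor of the same EGF-repeat family known from platelets and endothelium, had 45, 33.8 and 39.2 CPM in males and 39.6, 52.2 and 40.3 CPM in females (-0.16 ± 0.15, edgeR adjusted p = 0.580). The Pear1 difference was -0.02 without female 2, -0.03 without male 2 and -0.27 without male 1. The 8 tested markers of central glia and neurons summed to 35.2 to 85.1 CPM in males and 7.50 to 13.7 CPM in females, with 6 called higher in males, and 1 of them, Mog, was at 0 in females 1 and 2. Their part in the Megf10 values was not tested.

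The level of Pear1 hid a difference in its transcripts. The intron-retaining transcript Pear1-211 had 5.46, 6.09 and 5.30 TPM in males, against 0.897, 2.09 and 3.92 TPM in females. The coding transcript Pear1-216 ran the other way, with 4.41, 3.27 and 3.84 TPM in males and 5.03, 6.92 and 4.46 TPM in females. Neither overlapped between the sexes (exact permutation p = 0.1 for Pear1-211), and with protein-coding transcripts alone Pear1 differed by -0.76 ± 0.28 (edgeR adjusted p = 0.181).

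Stab1, a large scavenger receptor of tissue-resident macrophages and sinusoidal endothelium that binds phosphatidylserine, showed the largest difference of the set. It had 114, 163 and 125 CPM in males, against 377, 222 and 172 CPM in females. The males lay below the females, but female 3 (172 CPM) was close to male 2 (163 CPM). The means were 134 ± 26.0 CPM in males and 257 ± 107 CPM in females (SD, n = 3 each), with a difference of -0.94 ± 0.29 that was not called (edgeR adjusted p = 0.132). It was called without female 3 (-1.16, adjusted p = 0.0557, where 13.7% of all genes were called), and without female 1 it was -0.56 (adjusted p = 0.308). In TPM the sexes overlapped, with 60.2, 112 and 72.7 TPM in males and 111, 91.2 and 87.7 TPM in females, and with an offset for transcript length the difference was -0.20 ± 0.22 (edgeR adjusted p = 0.637).

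The transcripts of Stab1 did not move together. The full-length coding transcript Stab1-201 (chromosome 14, gene at 30860970 to 30890598, minus strand) had 6.98, 5.92 and 7.13 TPM in males, against 44.1, 23.1 and 8.39 TPM in females. Males lay close together and females 1 and 2 far above them, with female 3 next to the males. Stab1-204, a short transcript at the 3′ end that keeps the 72-base intron printed above, had 31, 65.5 and 37.2 TPM in males and 23.2, 34.5 and 44.9 TPM in females, and its ranges overlapped. With protein-coding transcripts alone Stab1 differed by -1.93 ± 0.50 and was called (edgeR adjusted p = 0.0922). In this setting, chosen after seeing the data, 6.56% of all genes were called.

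Transcripts of the 3′ end thus held a larger mean share in males in Mertk, Pear1 and Stab1, and such models were compared for all genes that have them. Transcript models that start at least 20% into the span of a gene's main coding transcript and share its 3′ end were set against that coding transcript. The 3′-end models held 31.2, 46.1 and 33.2% of the Mertk counts in males and 9.60, 10.3 and 29.1% in females. For Stab1 the shares were 60.0, 77.5 and 64.3% in males and 23.6, 34.6 and 65.0% in females, and for Pear1 57.5, 68.6 and 61.0% in males and 23.6, 33.7 and 49% in females. Mertk, where the share is that of Mertk-202 beside Mertk-201 and so restates the values above, and Pear1 did not overlap between the sexes, and Stab1 did (exact permutation p = 0.300). The other members with such models had low shares that overlapped, with means in males and females of 1.77 and 2.27% for Mfge8, 3.90 and 3.33% for Tyro3 and 1.47 and 0% for Pros1.

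Over 4026 genes with such models, they held 7.28, 9.69 and 7.72% of the summed counts in males and 5.03, 5.53 and 7.34% in females (exact permutation p = 0.2). Female 3 lay just above male 1. The median share per gene was 2.57, 3.65 and 2.86% in males and 2.5, 2.53 and 2.44% in females, so that by the median female 3 was the lowest library. Every male lay above every female in 12.3% of these genes and below in 4.9%. Models of the 5′ end, in 6071 genes, held 1.76, 1.80 and 1.76% in males and 3.05, 2.48 and 1.76% in females (exact permutation p = 0.400). Female 3 had the level of the males there, and females 1 and 2 lay above the other libraries, as they did for Stab1-201. The part of these library-wide shares in the Mertk, Pear1 and Stab1 values was not tested.

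**Figure D3:**
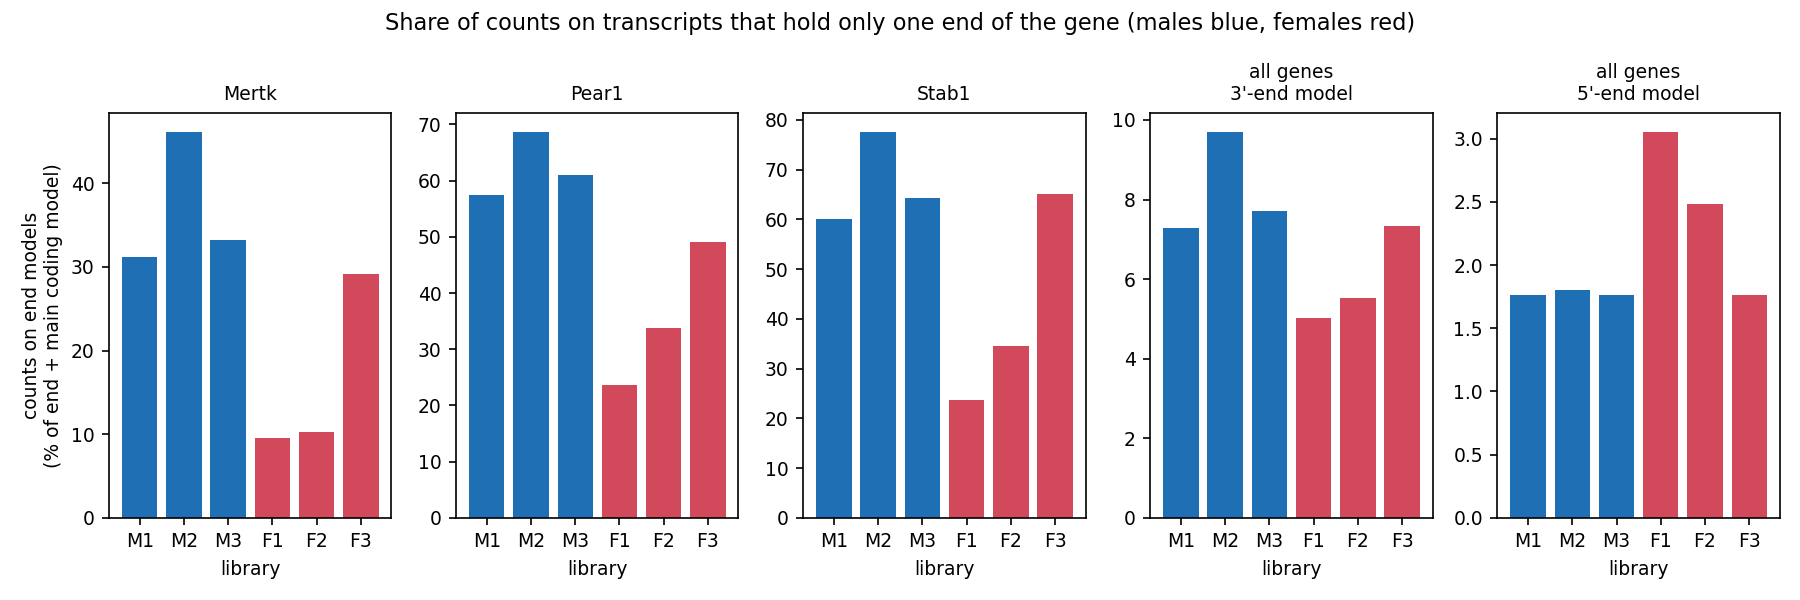
Share of counts on transcript models that hold only one end of a gene, in percent of those models and the main coding transcript together, in each male (blue, left) and female (red, right) library. The first 3 panels show 3′-end models of Mertk, Pear1 and Stab1, and the others show 3′-end models of 4026 genes and 5′-end models of 6071 genes; female 3 lies nearer to the males than females 1 and 2 do in every panel.

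Trem2, the lipid-sensing receptor of macrophages and microglia that takes up myelin debris, had 23.8, 46.0 and 23.2 CPM in males, against 54.6, 40.5 and 36.5 CPM in females. Males 1 and 3 lay below all females and male 2 lay between females 1 and 2. The difference was -0.50 ± 0.28 (edgeR adjusted p = 0.357), and without male 2 it was -0.87 and was called (adjusted p = 0.0832, where 4.02% of all genes were called). It was smaller without female 1 (-0.31, edgeR adjusted p = 0.733), male 3 (-0.33, 0.669) or male 1 (-0.34, 0.602). The transcript with the 55-base extension, Trem2-202, made up 14.9, 20.6 and 17.8% of Trem2 TPM in males and 17.7, 16.7 and 20.3% in females, so its share did not separate the sexes (exact permutation p = 1.0).

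Trem2 moved with macrophage markers from library to library. The 12 markers of the macrophage list, none of them at 0, summed to 2255, 3678 and 2139 CPM in males and 4026, 3570.3 and 2796 CPM in females. Male 2 was the male with the most macrophage marker RNA and also the male with the most Trem2. Per 100 CPM of these markers, Trem2 was at 1.06, 1.25 and 1.08 CPM in males and 1.36, 1.13 and 1.30 CPM in females, which overlapped (exact permutation p = 0.2). Stab1 was at 5.04, 4.44 and 5.84 CPM in males and 9.35, 6.23 and 6.16 CPM in females on the same scale, which did not overlap (exact permutation p = 0.1). That sum is mostly Lyz2, Mpeg1 and Ctss. Within the list Cd163 and Lyve1, known from resident macrophages, ran more like Stab1, with Cd163 at 44.0, 54.1 and 53.2 CPM in males and 149.8, 99.8 and 62.6 CPM in females and Lyve1 at 31.7, 29.2 and 27.4 CPM in males and 82.2, 49.5 and 37.7 CPM in females. Per CPM of these 2 genes, a measure chosen after their values were seen, Stab1 was at 1.5, 1.96 and 1.55 in males and 1.62, 1.49 and 1.72 in females, which overlapped. Because the 2 genes were picked for running like Stab1, this overlap was likely from the outset and tests nothing. Of the 12 markers of the list, 9 differences were negative and 3 positive, those of Aif1 (0.06 ± 0.37), Cd74 (0.21 ± 0.22) and Cx3cr1. The 1 gene of the list that was called was Cx3cr1, which rose in males by 0.82 ± 0.16 (edgeR adjusted p = 0.0571). That call was lost without female 1 (edgeR adjusted p = 0.216), male 1 (0.120) or male 3 (0.159).

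**Figure D4:**
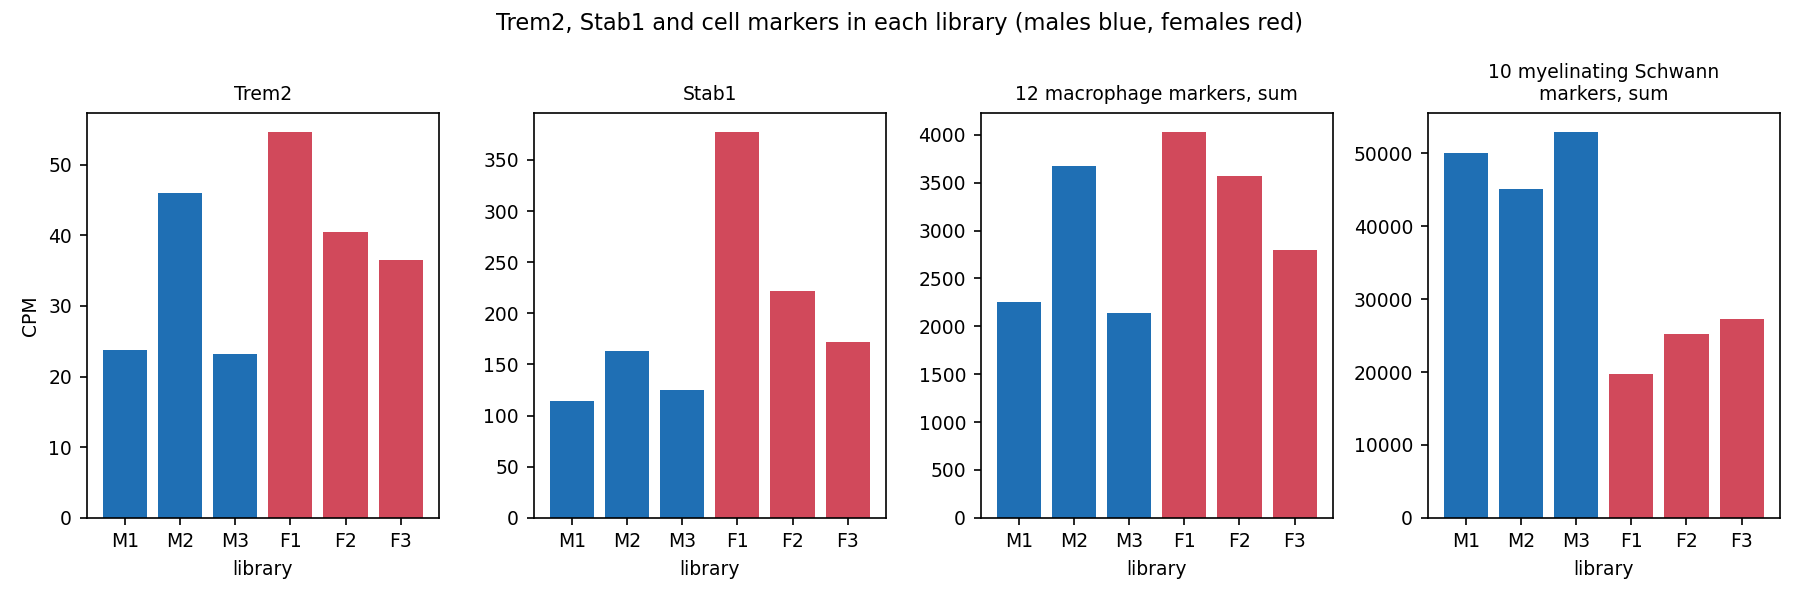
CPM of Trem2 and Stab1, and summed CPM of 12 macrophage markers and 10 myelinating Schwann cell markers, in each male (blue, left) and female (red, right) library. Male 2 has the highest Trem2 (46.0 CPM) and macrophage marker sum (3678 CPM) of the males, and the myelin marker sums do not overlap between the sexes.

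Marker RNA of other cell types varied between libraries. The 10 myelinating Schwann cell markers summed to 45077 to 52907 CPM in males and 19688 to 27322 CPM in females, and 6 of them were called higher in males. The sexes did not overlap in that sum, nor in those of the general Schwann cell markers and the central glia and neuron markers given above. They did not overlap in the 7 mural cell markers either, at 607 to 682 CPM in males and 705 to 901 CPM in females. Of these markers 3 differences were positive and 4 negative, and Tagln was called lower in males (-0.58 ± 0.15, edgeR adjusted p = 0.0953). The sums of the other cell type lists overlapped. Adipocyte markers (8 genes) summed to 96.7 to 419 CPM in males and 165 to 927 CPM in females, skeletal muscle markers (9 genes) to 8.56 to 514 CPM in males and 40.7 to 526 CPM in females, and endothelial markers (9 genes) to 400.4 to 435 CPM in males and 356 to 511 CPM in females. No adipocyte or endothelial marker was called by edgeR (2 and 1 had an unadjusted p under 0.05, DESeq2 called 1 and 0, limma-voom 0 and 0), and of the muscle markers 3 were called lower in males (Myh4, Actn3 and Pvalb). The 8 adipocyte differences were all negative, with a median of -1.35. Of the muscle markers 8 were negative and 1 positive (median -1.48), and of the endothelial markers 5 were negative and 4 positive (median -0.19). The 10 clearance genes together summed to 1033 to 1096 CPM in males and 1283 to 1438 CPM in females. The part of these cell types in the Axl, Pros1 and Stab1 values was not tested.

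Genes whose levels ran most like those of a member over the 6 libraries are given as a description, with Pearson's r of log2 CPM, as the nearest of 10076 protein-coding genes. Trem2 ran with Ctsb (0.996), the lysosomal protease cathepsin B, and with Btk (0.995) and P2ry6 (0.995), a kinase and a nucleotide receptor of phagocytes. Stab1 ran with Rmc1 (0.999), Camk1d (0.998) and Dgkz (0.998), Axl with Nedd1 (0.996), Rps6kb1 (0.996) and Xpot (0.992), and Mertk with Mylip (0.994), Nod1 (0.988) and Prmt2 (0.987). The highest r of the other members ran from 0.987 to 0.999. The points share library depth, the sex difference and cell composition.

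The wider clearance pathway was followed in 9 related lists of 99 genes, of which 95 were tested. Of these 95 genes 1 rose and 3 fell in males, which is 4.21% called, against 5.30% of all genes. The median difference was -0.16, with 26 positive and 69 negative. Over all genes it was -0.03, with 8596 positive and 9800 negative.

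Among other engulfment and scavenger receptors, Adgrb1 (BAI1), which binds phosphatidylserine, rose in males. It had 2.21, 2.89 and 3.02 CPM in males and 0.898, 1.24 and 0.859 CPM in females (1.44 ± 0.25, edgeR adjusted p = 0.0457). Cd36, a receptor for oxidised lipids and apoptotic cells, fell in males, with 47.8, 45.9 and 42.7 CPM in males and 136, 98.6 and 79.6 CPM in females (-1.20 ± 0.19, edgeR adjusted p = 0.0374). Neither gene overlapped between the sexes. Cd36 is also abundant in adipocytes and endothelium, whose marker sums and differences are given above, and their part in the Cd36 values was not tested. Markers of central glia and neurons were also higher in males, as given beside Megf10, and their part in the Adgrb1 values was not tested.

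In the engulfment machinery Abca1, the cholesterol exporter that phagocytes use after lipid uptake, fell in males to 82.4 ± 10.3 CPM, against 164 ± 39.8 CPM in females (SD, n = 3 each, -0.99 ± 0.19, edgeR adjusted p = 0.0506). It was the only call among the 14 tested genes of its list.

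These 3 calls were lost without female 1 and without male 3. Adgrb1 then had, in that order, an adjusted p of 0.179 and 0.176, Cd36 of 0.145 and 0.159, and Abca1 of 0.167 and 0.198, whereas their differences kept their signs. Adgrb1 also lost its call with protein-coding transcripts alone (2.61, edgeR adjusted p = 0.317).

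Of the 9 lists, 6 held no called gene by edgeR. At an unadjusted p under 0.05 there was 1 of 12 other bridging molecules, 2 of 8 antibody and complement receptors, 3 of 12 partners and relatives of Trem2, 0 of 4 signals that block uptake, 1 of 8 genes of the vitamin K cycle and TAM feedback, and 1 of 14 phagosome and lipid handling genes. DESeq2 called 1, 2, 3, 0, 0 and 1 of them, in the same order, and limma-voom called 0 in each. Over all genes tested, 20.7% had an unadjusted p under 0.05, DESeq2 called 13.3% and limma-voom called 4.62%.

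Genes with the smallest p in these lists had the following values. Anxa1, a bridging molecule, averaged 186 ± 17.3 CPM in males and 253 ± 28.4 CPM in females (-0.45 ± 0.13, edgeR adjusted p = 0.118). Itgam and Itgb2, the 2 chains of complement receptor 3, differed by -0.98 ± 0.33 (edgeR adjusted p = 0.155) and -0.84 ± 0.26 (0.132). In the Trem2 list, Plcg2, the phospholipase downstream of Trem2, differed by -0.73 ± 0.24 (edgeR adjusted p = 0.149), and Adam10, a protease that sheds Trem2, by 0.54 ± 0.16 (0.123). Cd47, the signal that restrains phagocytes, averaged 183 ± 8.70 CPM in males and 156 ± 25.9 CPM in females (0.23 ± 0.14, edgeR adjusted p = 0.381). Vkorc1l1 and Vkorc1, which recycle the vitamin K that Gas6 and protein S need, differed by 0.30 ± 0.12 (edgeR adjusted p = 0.225) and 0.25 ± 0.11 (0.246), and Cybb, the oxidase subunit of phagosomes, by -0.72 ± 0.22 (0.138). The others named by the same rule were Thbs1 (-0.92 ± 0.44, edgeR adjusted p = 0.289), Cd24a (0.29 ± 0.18, 0.384) and Pparg (-1.18 ± 0.52, 0.252).

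**Figure D5:**
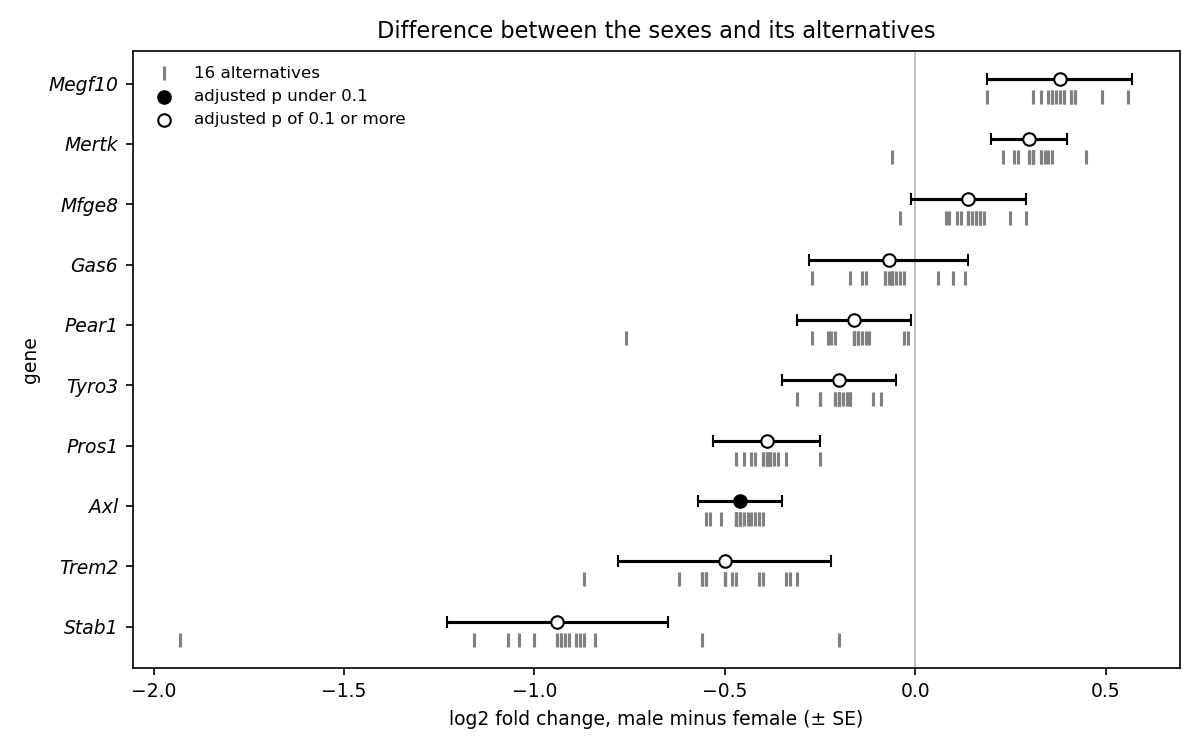
Log2 fold change, male minus female, of the 10 genes (circle ± SE, filled at an adjusted p under 0.1) with the 16 other settings as grey ticks below each. Axl stays between -0.55 and -0.40, whereas Stab1 spans -1.93 to -0.20 and Mertk -0.06 to 0.45.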

How the data were processed

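Poly-A RNA was sequenced as stranded paired-end libraries. The submitters' processing notes name Trimmomatic 0.39, Salmon 1.5.2 and MultiQC 1.9. The authors deposited Salmon's estimated counts, TPM and effective lengths for 140789 transcripts. The deposited estimated counts were not normalised, and reads that match several transcripts were split by Salmon's model. TPM, as deposited, was corrected for effective length and scaled per library.

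Estimated counts were summed per symbol, rounded, filtered (filterByExpr), normalised by TMM and tested in R 4.3.3 with edgeR 4.0.16, with sex as the only term. Alternatives used DESeq2 1.42.0 and limma 3.58.1. The threshold, an adjusted p under 0.1, was the study's. Shares were compared with two-sided exact permutation tests (smallest p 0.1). No library was a copy of another (chi-square of counts per degree of freedom 44.8 to 133.9 within a sex). P-values measure the spread between pools.

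Loci and sequences came from GENCODE M39 on GRCm39, where 99.1% of transcript identifiers were found without their version (73.4% with it). 3′-end models needed to end within 10% of the span of the coding transcript, and both models together a mean of 100 counts per library. The members and lists were chosen with earlier results of these data known. Besides the members, genes were named when called in a related list or, in a list with none, from the 2 with the smallest p. The 3 genes with the highest correlation were taken for each member among genes with a mean CPM of 10 or more. Transcript shares were compared for transcripts with a mean share of 10% or more. Some genes that this rule names are not reported here.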

Additional observations from a re-analysis of the deposited data

How the results depend on the processing

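Of 160 differences of single members under other settings, 140 kept their direction and their side of the threshold, 8 passed it anew, 7 lost it (all of Axl) and 5 changed sign. The sign changes were Mertk with protein-coding transcripts alone (-0.06), Gas6 with a transcript length offset (0.06), without female 2 (0.10) and without male 2 (0.13), and Mfge8 without male 1 (-0.04). With 1 library left out, Gas6 ran from -0.27 to 0.13 and Mfge8 from -0.04 to 0.29. The call of Axl was lost with no filter (edgeR adjusted p = 0.102), with the replicate number as a block (0.232) and without any 1 library other than female 3. The use of protein-coding transcripts alone was chosen after seeing the data.

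The count of called genes was 975, of members 1 and of the related lists 4. DESeq2 called 2440, 4 (Axl, Mertk, Pros1 and Stab1) and 19 in the same order. With no filter the counts were 1614 genes (5.24% of those tested), 1 member (Stab1) and 14 of the related lists. A transcript length offset gave 971 genes (5.28%), 2 members (Axl and Mertk) and 7 of the related lists. Protein-coding transcripts alone gave 983 genes (6.56%) and 2 members (Axl and Stab1). At an adjusted p under 0.05 edgeR called 279 genes and 0 members. Leaving out 1 library gave 1 to 2609 genes, 0 to 2 members and 0 to 20 of the related lists: 1 gene without female 1, 7 without male 3 and 2609 without female 3. The same replicate number did not pair the libraries (correlations of their deviations -0.039, -0.304 and -0.296), and with the replicate block edgeR called 56 genes, 0 members (3 at an unadjusted p under 0.05) and 1 gene of the related lists (Cd36, edgeR adjusted p = 0.0958), so that Adgrb1 (0.131), Abca1 (0.129) and Cx3cr1 (0.146) lost their calls. With estimated counts in place of TPM, the share of Axl among the TAM receptors differed by -7.39 points and that of Mertk by 7.20 points. With protein-coding transcripts alone they differed by -2.58 and 2.14 points. The causes of these changes were not tested. With a transcript length offset Cd47 turned to -0.19. Other scalings moved the median difference of all genes to no further than -0.07.

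With 3 pools per sex an exact test cannot go below 0.1, and estimates for single transcripts rest on how shared reads were split.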
